A study of Mus musculus with 8 samples.

Results

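The genes described here are the Zbtb family, mouse transcription factors with a BTB domain at one end and C2H2 zinc fingers at the other. They were chosen by name, as every symbol that starts with Zbtb and a digit plus Bcl6, Bcl6b, Patz1, Hic1 and Hic2, and 40 of the 14033 symbols of the authors' deposited table met this rule. Choosing by name also took in Zbtb8os, which lies on the strand opposite to a Zbtb gene and encodes archease, a tRNA ligase cofactor with no zinc finger, so 39 members are zinc finger factors and Zbtb8os is given apart where it matters. RNA was measured in hematopoietic cells of E14.5 mouse fetal liver, from embryos of Flt3-Cre mice crossed to the mTmG reporter strain. The GFP+ fraction (4 libraries) had undergone recombination by the Flt3-Cre transgene at some point in its history, and the Tomato+ fraction (4 libraries) had not. Both fractions came from the same cross, carried the same reporter and were sorted as lineage-negative, Kit+, Sca1+ and CD150+ cells. The labels do not say whether libraries came from single or pooled embryos, or from separate litters, so the p-values may measure only technical spread. The table gives 1 mean normalized count per fraction and gene and no value per library, so no spread between libraries can be shown.

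BTB zinc finger proteins bind DNA through the zinc fingers and pair up through the BTB domain, which also recruits corepressors such as NCOR1 and BCOR or the ubiquitin ligase scaffold CUL3. Several of them decide between blood lineages. PLZF, encoded by Zbtb16, directs innate-like lymphocytes such as NKT cells, ThPOK (Zbtb7b) directs CD4 T cells, BCL6 directs germinal centre B cells, LRF (Zbtb7a) acts in the choice between B and T cells and in red cells, and Miz-1 (Zbtb17) acts in early lymphocytes. The study concerns a short-lived fetal stem cell and the innate-like lymphocytes that come from it, and the comparison asks how cells with and without a Flt3-Cre history differ.

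No Zbtb family gene differed between fractions past the threshold. At the authors' adjusted p under 0.05, 0 of 40 members passed, against 7.49% of all rows and 6.64% of the rows whose overall mean lay within the members' range. At an unadjusted p under 0.05 the count was also 0 of 40, against 16.2% of all rows. The lowest adjusted p of the family per the authors' deposited table was 0.309, for Zbtb38. A p that misses the threshold does not show that the fractions were alike, and without values per library no interval of a difference can be given. The members' values are therefore set out as levels and differences in the rest of the text.

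Start-site sequences are shown for 4 members: Zbtb7a, which has the highest mean, Bcl6, which is scarce and lies farthest from 0 in log2, and the neighbours Zbtb1 and Zbtb25, which are read outwards from opposite strands. Each is 300 bases, 250 before and 50 after the start, from RefSeq on GRCm38.p6, written 5′ to 3′ on the gene's strand, with every CpG in capitals. The authors' build was mm9, and the expression values carry no coordinates. Where RefSeq has more than 1 start, the window with the most CpGs is given, and annotated starts need not be the ones used in these cells.
Zbtb7a, chr10:81136021-81136320, plus strand: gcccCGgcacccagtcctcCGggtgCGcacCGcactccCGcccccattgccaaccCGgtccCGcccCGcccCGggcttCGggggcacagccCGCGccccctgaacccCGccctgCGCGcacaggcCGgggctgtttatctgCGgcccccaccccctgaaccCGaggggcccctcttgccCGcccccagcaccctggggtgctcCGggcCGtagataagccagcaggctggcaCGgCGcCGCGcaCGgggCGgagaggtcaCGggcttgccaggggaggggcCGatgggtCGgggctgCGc
Bcl6, chr16:23988803-23989102, minus strand: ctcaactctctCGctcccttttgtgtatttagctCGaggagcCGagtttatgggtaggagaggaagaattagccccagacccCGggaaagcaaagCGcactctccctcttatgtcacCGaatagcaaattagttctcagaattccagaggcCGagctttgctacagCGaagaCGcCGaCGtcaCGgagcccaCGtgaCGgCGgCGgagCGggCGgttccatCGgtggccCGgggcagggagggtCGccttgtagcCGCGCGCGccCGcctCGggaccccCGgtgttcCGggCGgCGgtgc
Zbtb1, chr12:76370270-76370569, plus strand: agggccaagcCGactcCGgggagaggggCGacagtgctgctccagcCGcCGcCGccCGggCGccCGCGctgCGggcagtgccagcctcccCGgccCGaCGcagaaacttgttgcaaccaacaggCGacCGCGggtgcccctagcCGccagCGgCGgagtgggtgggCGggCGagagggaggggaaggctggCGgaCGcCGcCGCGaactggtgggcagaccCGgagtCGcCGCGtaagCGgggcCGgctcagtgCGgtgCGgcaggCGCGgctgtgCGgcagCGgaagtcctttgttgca
Zbtb25, chr12:76369415-76369714, minus strand: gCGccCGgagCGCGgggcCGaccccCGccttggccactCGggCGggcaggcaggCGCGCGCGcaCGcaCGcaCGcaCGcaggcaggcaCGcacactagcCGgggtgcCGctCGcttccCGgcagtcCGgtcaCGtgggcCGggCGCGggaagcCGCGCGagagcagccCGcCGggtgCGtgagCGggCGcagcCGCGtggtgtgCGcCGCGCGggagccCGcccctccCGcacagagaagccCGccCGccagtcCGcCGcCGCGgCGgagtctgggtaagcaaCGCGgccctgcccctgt
Zbtb7a and Bcl6, which stand near opposite ends of the family by mean, each have 31 CpGs in the window. Zbtb1 has 39 and Zbtb25 has 51.

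A window was found for 35 of the 40 members, 44 windows in all. Of these 35 genes, 32 (91.4%) had at least 10 CpGs in their richest window, against 83.6% of the 9186 genes of the table with a window. The median was 29 CpGs for members and 22 for all these genes. The 3 members under 10 were Zbtb46, Zbtb20 and Zbtb7b. For 6 members GENCODE M21 has other protein-coding starts more than 1000 bases upstream of the richest window. Zbtb46, Zbtb20 and Zbtb6 had 1 window each, so no upstream window of theirs was searched. For Hic1, Patz1 and Zbtb38 another RefSeq window upstream was among the 44 searched. Whether it lies at the same starts was not checked. The GC box GGGCGG, on either strand, stood in 79.5% of the members' windows and in 61.1% of the 11734 windows of all genes in the table. The Ets core CCGGAA stood in 40.9% against 25.8%, the E-box CACGTG in 13.6% against 9.79%, and the GATA motif AGATAA in 4.55% against 6.83%, with both strands searched and none of these 4 motifs contained in another. These matches describe letters in a window and show no binding, and windows of 1 gene share bases where starts lie close together.

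The family as a whole was expressed at ordinary levels. Its overall means ran from 6.78 to 803 normalized counts with a median of 212, close to the median of 214 over all rows of the authors' deposited table. Summed over the 40 genes, the level came to 8902 in GFP+ cells against 9621 in Tomato+ cells, in normalized counts, from the authors' deposited table, a ratio of 0.925. Of the 40 members, 31 had an overall mean of at least 50 and 9 a lower one. To set genes side by side, each mean was divided by the length of the longest protein-coding GENCODE M21 transcript, which may differ from the gene model the authors counted on. On that scale of normalized counts per kb, Zbtb12 (266), Patz1 (178), Zbtb17 (141), Zbtb22 (141) and Zbtb7a (135) led, and the family median was 43.1. At the other end came Zbtb37 (3.43), Bcl6 (2.22), Hic1 (1.94) and Zbtb20 (0.413), again in counts per kb computed from the authors' deposited table. The spread behind this order is unknown, the lead of Zbtb12 rests on its short transcript of 1.86 kb, and the low places of Zbtb37 and Zbtb20 rest in part on long ones of 18.8 and 26.9 kb.

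**Figure D1:**
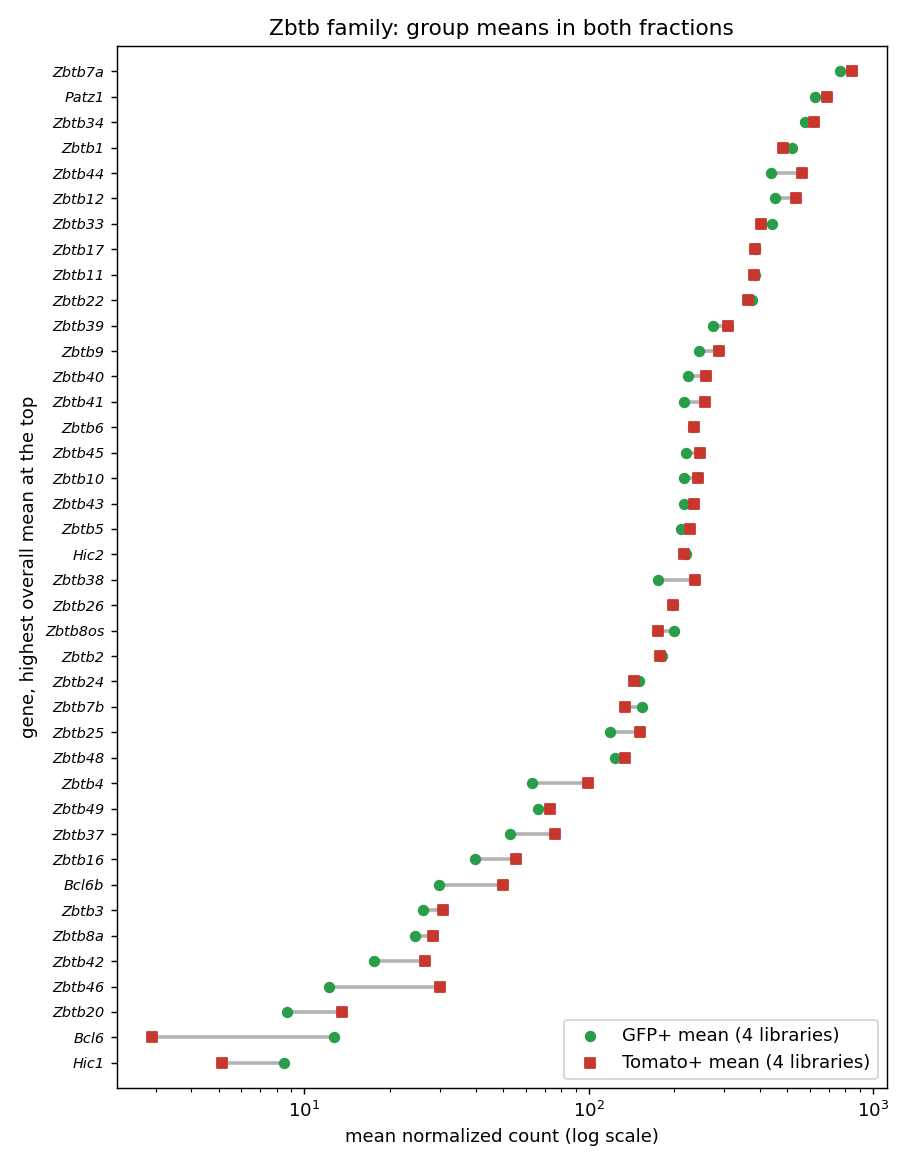
Mean normalized count of each of the 40 members in GFP+ (green circles) and Tomato+ cells (red squares) on a log scale, with the highest overall mean at the top. The paired symbols nearly coincide for most members from Zbtb7a (766 in GFP+, 841 in Tomato+) down to Zbtb48 (124 in GFP+, 134 in Tomato+), and stand apart for the scarce genes Zbtb46 and Bcl6.

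Differences between fractions were small for the well-measured members. All log2 values here are of the GFP+ over the Tomato+ mean, so that a negative value means lower in GFP+. Among the 31 members with a mean of at least 50, log2 ran from -0.65 to 0.20, and 26 of the 31 lay within 0.25 of 0, per the authors' deposited table. An absolute log2 of at least 0.5 was seen for 2 of these 31, against 13.8% of rows between a mean of 50 and that of the highest member. Of the 9 scarcer members, 6 had an absolute log2 of at least 0.5, against 53.0% of rows between the lowest member and a mean of 50, and 2 of the 6, Bcl6 and Hic1, were on the GFP+ side.

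More members lay on the Tomato+ side than on the GFP+ side. By the authors' deposited table, a log2 below 0 was found for 27 of the 40 and one above 0 for 13 (32.5%), whereas 51.2% of all rows were above 0. The median log2 was -0.13 for members and 0.0095 for all rows. GFP+ means sum to a higher total, and scaling both fractions to the same total moves every log2 value down by 0.16, which leaves 4 members above 0 and a median of -0.29 for members and -0.15 for all rows. No test was made over members, which are not replicates, and neither count is a result about single genes.

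**Figure D2:**
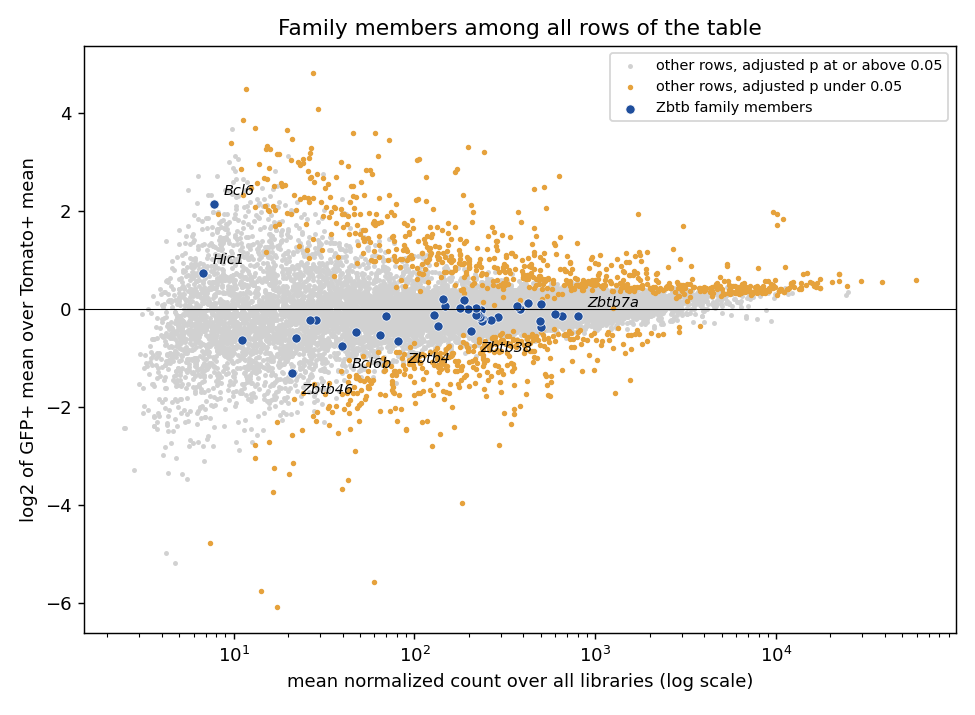
Log2 of the GFP+ over the Tomato+ mean (vertical) against the mean normalized count over all libraries (horizontal, log scale) for all 14268 rows, with rows past an adjusted p of 0.05 in orange and the 40 members in blue. The members lie in the central band, and the 2 farthest from 0, Bcl6 at 2.13 and Zbtb46 at -1.30, have low means where the band is wide.

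The size of the log2 values went with the level, in the family as over all rows. For means from 5 to 50, the median absolute log2 was 0.64 for 9 members and 0.55 for all rows in that range. Between 50 and 200 it was 0.16 for 10 members and 0.23 for all rows, and between 200 and 500 it was 0.14 for 16 members and 0.15 for all rows. From 500 to 1000 it was 0.13 for 5 members and 0.13 for all rows, all from the authors' deposited table.

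Among the lineage regulators, 11 of 12 listed genes were measured, 0 passed, and the 11 ranged in log2 from -1.30 to 2.13 with 5 above 0, of which 2 stay above 0 with equal totals. Zbtb16, whose protein PLZF directs innate-like lymphocytes, averaged 39.8 normalized counts in GFP+ cells against 55.4 in Tomato+ cells, per the authors' deposited table (log2 -0.48, adjusted p = 0.917). Its level was thus low in both fractions, with the GFP+ mean the lower. Zbtb7b, which encodes ThPOK, had 154 in GFP+ and 134 in Tomato+ (log2 0.20, adjusted p = 0.928, the authors' deposited table). It had the highest log2 among the 31 better-measured members, and 0.04 with equal totals.

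Zbtb7a, which encodes LRF, had 766 in GFP+ and 841 in Tomato+ cells, with a log2 of -0.13, per the authors' deposited table. Patz1, whose protein MAZR acts at the Cd8 genes in T cells, had 627 in GFP+ and 688 in Tomato+, also at -0.13, per the authors' deposited table. These were the 2 members with the highest means, and their log2 values lay close to the family median. Zbtb1, needed for lymphoid development, had 519 in GFP+ and 484 in Tomato+ (log2 0.10, or -0.06 with equal totals), and Zbtb17, which encodes the MYC partner Miz-1, had 385 in GFP+ and 385 in Tomato+ (log2 0.0011, or -0.16 with equal totals), both from the authors' deposited table. Zbtb24, a gene of the human immunodeficiency syndrome ICF, had 149.9 in GFP+ and 144 in Tomato+, per the authors' deposited table (log2 0.06, or -0.10 with equal totals).

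The other lineage regulators were scarce. Bcl6, the germinal centre repressor, averaged 12.7 normalized counts in GFP+ cells against 2.91 in Tomato+ cells, per the authors' deposited table, a log2 of 2.13 that did not pass (adjusted p = 0.561). Its paralog Bcl6b had 29.7 in GFP+ and 50.1 in Tomato+ (log2 -0.76, adjusted p = 0.575, the authors' deposited table). So the closest relatives lay on opposite sides of 0, both without passing, and the difference between them was not tested. Zbtb46, a marker gene of classical dendritic cells, had 12.2 in GFP+ and 29.9 in Tomato+ (log2 -1.30, adjusted p = 0.488), and Zbtb20, known in liver as a repressor of the Afp gene, had 8.70 in GFP+ and 13.5 in Tomato+ (log2 -0.64, adjusted p = 0.880), both from the authors' deposited table.

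Genes listed as markers of other cell types differed between the fractions and stand beside these scarce members. Of 15 measured endothelial genes, 6 fell and 1 rose, with summed levels of 4774 in GFP+ against 6768 in Tomato+ (normalized counts). In log2, 13 of the 15 lay below 0 and 2 above. Esam, Tie1, Tek and Kdr had the smallest p among the fallers. Cdh5, with 88.7 in GFP+ and 147 in Tomato+, did not pass (adjusted p = 0.190, the authors' deposited table). Bcl6b and Zbtb46 are also known in endothelium. Of 13 B lymphoid genes 8 rose and 0 fell (sums 1363 in GFP+ and 341 in Tomato+), and of 14 macrophage genes 12 rose and 0 fell (2204 in GFP+ and 701 in Tomato+). Of 14 hepatoblast genes 12 rose and 0 fell (4009 in GFP+ and 2176 in Tomato+). Zbtb20, also known in liver, was scarce in both fractions and did not pass, so no direction is read from it. Erythroid genes rose in 7 and fell in 1 of 11 cases (37483 in GFP+ and 11912 in Tomato+, mostly the globin genes Hba-a2 and Hbb-b1). In log2, 7 of the 11 lay above 0 and 4 below. The faller was Gata1 (135 in GFP+ and 281 in Tomato+), and the riser Rhag had a log2 of 0.15, or -0.0085 with equal totals. Dendritic genes rose in 1 and fell in 0 of 6 (4188 in GFP+ and 1910 in Tomato+, mostly Flt3). T and NK genes rose in 1 and fell in 0 of 3 (246 in GFP+ and 182 in Tomato+). In log2, 2 of these 3 lay above 0 and 1 below, Thy1 (8.37 in GFP+ and 26.8 in Tomato+), which did not pass. Not measured were 6 of the 9 listed T and NK genes, 4 of 15 erythroid and 3 of 9 dendritic genes. The hepatoblast and macrophage lists, of 15 genes each, lacked 1 gene each. All counts and sums are from the authors' deposited table, no listed marker in it is at 0, and the part of such cells in the members' values was not tested. In bulk RNA, fewer cells of a type and less RNA per cell cannot be told apart. The 8 genes that define the sort and the stem cell state were all measured, with 1 called higher and 5 called lower in GFP+. The riser, Flt3, is also the dendritic gene called above, and Tek, called lower, also counts among the endothelial genes. These calls are therefore counted on more than 1 list.

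**Figure D3:**
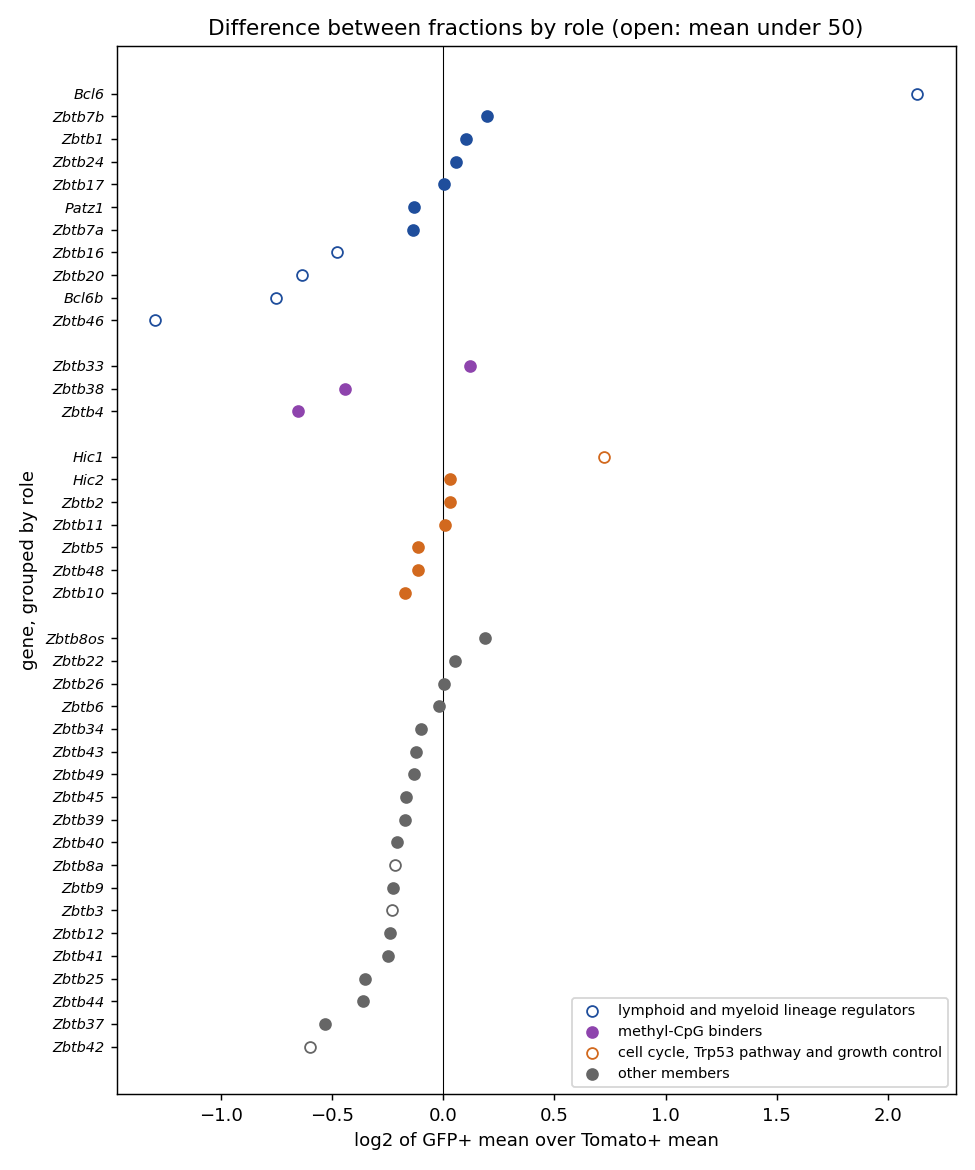
Log2 of the GFP+ over the Tomato+ mean of each member, grouped by role, with open symbols for members whose overall mean is under 50. Filled symbols lie between -0.65 and 0.20, and the outlying values of Bcl6 (2.13), Zbtb46 (-1.30), Bcl6b (-0.76) and Hic1 (0.72) are open.

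Of the methyl-CpG binding members, which attach to methylated DNA through their zinc fingers, 0 of 3 passed. Zbtb38 and Zbtb4, with Zbtb44 of the remaining members, were the 3 members with an unadjusted p under 0.1. Zbtb38 averaged 175 normalized counts in GFP+ cells against 237 in Tomato+ cells, a log2 of -0.44 (p = 0.0502, adjusted p = 0.309, the authors' deposited table). Zbtb4, which represses the cell cycle inhibitor gene Cdkn1a, had 63.2 in GFP+ and 99.5 in Tomato+, a log2 of -0.65 (p = 0.0990, adjusted p = 0.467, the authors' deposited table). Of the 31 better-measured members, Zbtb4 had the lowest log2. Zbtb33, which encodes Kaiso, had 440.1 in GFP+ and 405 in Tomato+, a log2 of 0.12 that is -0.04 with equal totals, per the authors' deposited table.

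Among the 7 members listed for growth control, the p53 pathway or telomeres, 0 passed, and 6 had an absolute log2 of at most 0.17. Zbtb2 and Zbtb5, both repressors of the p53 pathway, lay at a log2 of 0.03 (-0.13 with equal totals) and of -0.11, per the authors' deposited table. Hic2, a repressor of Bcl11a in the red cell lineage, had 221 in GFP+ and 216 in Tomato+, and Zbtb11 had 385 in GFP+ and 382 in Tomato+, per the authors' deposited table. Zbtb10 and the telomere protein gene Zbtb48 had log2 values of -0.17 and -0.11. Hic1, a tumour suppressor gene that p53 induces, had only 8.44 in GFP+ and 5.11 in Tomato+, a log2 of 0.72 with adjusted p = 0.951, per the authors' deposited table.

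The 19 remaining members had log2 values from -0.60 to 0.19, 16 below and 3 above 0, and 15 of them lay within 0.25 of 0. Zbtb44, a member of little known function, was the lowest by p among them, with 438 in GFP+ and 562 in Tomato+ (log2 -0.36, p = 0.0973, adjusted p = 0.462, the authors' deposited table). It is the one member with a second row, which had 312 in GFP+ and 413 in Tomato+ (log2 -0.41, adjusted p = 0.469, the authors' deposited table). Zbtb34, the highest of the remaining members by mean, had 578 in GFP+ and 620.02 in Tomato+, and Zbtb12 had 453 in GFP+ and 534 in Tomato+, both from the authors' deposited table. Zbtb37 (log2 -0.53, means 52.8 in GFP+ and 76.3 in Tomato+) and Zbtb42 (log2 -0.60, means 17.5 in GFP+ and 26.5 in Tomato+) were the 2 of these 19 with an absolute log2 of at least 0.5, per the authors' deposited table. Zbtb39, Zbtb9, Zbtb40, Zbtb41 and Zbtb45 lay between -0.25 and -0.17. Zbtb3 had -0.23, Zbtb49 had -0.13 and Zbtb22 had 0.05 (-0.10 with equal totals), from the authors' deposited table.

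Members that neighbour each other in the genome did not always share a sign. By RefSeq gene order on GRCm38.p6, 4 pairs, 8 genes in all, are next to each other. Zbtb25 and Zbtb1, which are read outwards from opposite strands and whose RefSeq gene bodies overlap, lay at a log2 of -0.35 and of 0.10, per the authors' deposited table. Read outwards from the starts shown, these genes would not overlap, so the overlap involves another annotated start. Which start it is was not examined. The start-site windows shown for this pair do not overlap, and neither do their exons in GENCODE M21. Zbtb8os and Zbtb8a had 0.19 and -0.22, while Zbtb34 and Zbtb43 had -0.10 and -0.12, and Zbtb6 and Zbtb26 had -0.02 and 0.0024, per the authors' deposited table. With equal totals Zbtb1 had -0.06 and Zbtb26 had -0.15, so that only the pair of Zbtb8os and Zbtb8a still differed in sign among these 4. None of the 8 genes passed, and no difference within a pair was tested. Exons of 9 members, among them Zbtb6 and Zbtb26 with each other and Zbtb12 with C2, overlap those of another protein-coding gene in GENCODE M21. No source used here says whether counting took strand into account, so reads of such genes may be shared.

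None of the measured genes on the next 3 lists passed, against 7.49% of all rows, and 16.2% of all rows had an unadjusted p under 0.05. At such shares a short list may be without a call, so these counts are no result about the lists. Of 6 BTB zinc finger genes that carry other names, 0 passed and 1 had an unadjusted p under 0.05, which was Zfp131, with 358 in GFP+ and 262 in Tomato+ (log2 0.45, adjusted p = 0.0936, the authors' deposited table) and a second row at 0.51 (adjusted p = 0.0642). Of 23 corepressor and CUL3 ligase genes 0 passed and 0 had an unadjusted p under 0.05, with log2 values from -0.29 to 0.31 and a median of 0.00072. Cul3 had 1305 in GFP+ and 1081 in Tomato+, and Bcor had 920 in GFP+ and 1051 in Tomato+, per the authors' deposited table. Of 4 BTB factors without such zinc fingers 0 passed and 1 had an unadjusted p under 0.05, Nacc2, with 18.5 in GFP+ and 43.2 in Tomato+ (log2 -1.22, adjusted p = 0.233, the authors' deposited table).

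Lists of partners and targets held 1 or 2 called genes each, on lists of 4 to 14 genes, against 7.49% of all rows. Of 8 measured genes around Miz-1 only Myc passed the threshold, 1.50-fold higher, with 2594 in GFP+ and 1726 in Tomato+ (adjusted p = 0.00103, the authors' deposited table). Among 14 reported BCL6 targets, Cd69, an activation marker of lymphocytes, rose 2.01-fold and Socs2, a brake on cytokine signalling, was called 2.27-fold lower (adjusted p = 0.0464 and 0.00137), per the authors' deposited table. Of the 4 ICF syndrome genes, which include Zbtb24, the DNA methyltransferase gene Dnmt3b rose 1.29-fold (4521 in GFP+ and 3494 in Tomato+, adjusted p = 0.0323, the authors' deposited table). It was also the only call among 10 other readers and writers of DNA methylation.

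The list of the innate-like T programme around PLZF held 5 calls among 8 measured genes, against 7.49% of all rows, and Zbtb16 itself did not pass. Of the 16 genes on the list 8 were measured, with 4 called higher and 1 called lower in GFP+, and the faller was Slamf1, the gene of the sort marker CD150. Id2, an inhibitor of E proteins, had 114 in GFP+ and 56.4 in Tomato+, and Tox, a regulator of T cell development, had 186 in GFP+ and 95.9 in Tomato+, per the authors' deposited table (adjusted p = 0.0313 and 0.0242). Slamf6, a receptor that helps select innate-like T cells, had 24.6 in GFP+ and 3.18 in Tomato+ (adjusted p = 0.0432, the authors' deposited table). Sox13 was the remaining riser, and Gata3 had 53.6 in GFP+ and 90.02 in Tomato+ without passing (adjusted p = 0.503, the authors' deposited table). The lists were drawn up with earlier results of these data known, so their counts describe the libraries and are no independent evidence.

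**Figure D4:**
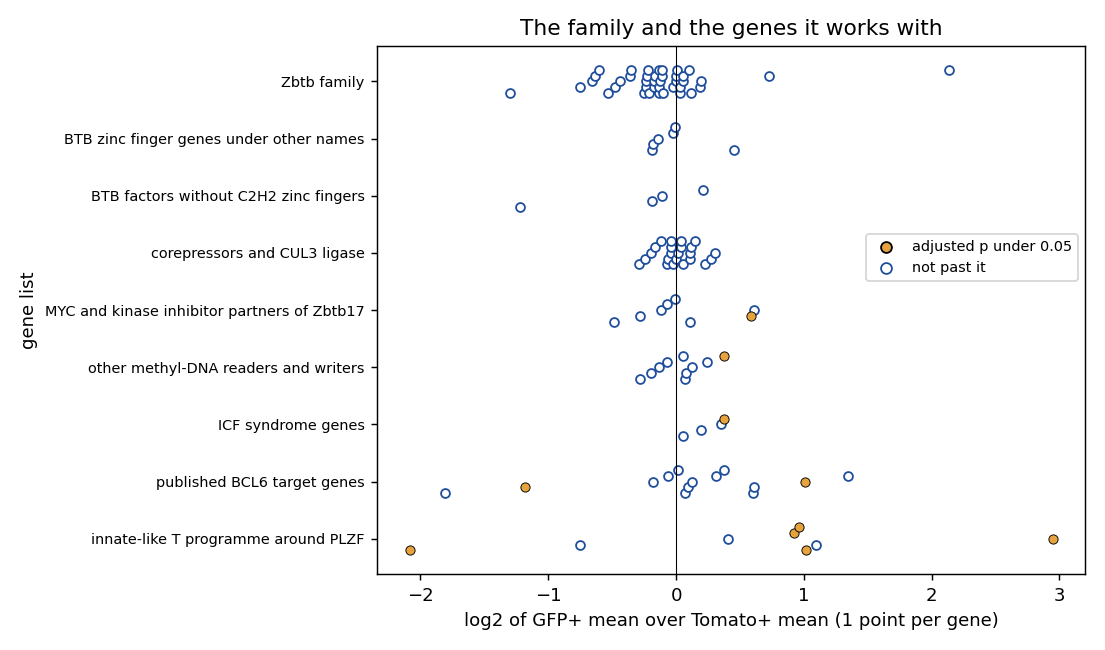
Log2 of the GFP+ over the Tomato+ mean for the Zbtb family and 8 lists of related genes, 1 point per gene, with genes past an adjusted p of 0.05 in orange. The family, the corepressors and both BTB lists have no orange point, and the PLZF list has 5 of 8.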

How the data were processed

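A single deposited table of 14268 rows and 14033 symbols, in which the authors compared the fractions, was used. Per the submitters' processing notes, the tools named were DESeq, bedtools, TopHat, TopHat2 2.0.11 and Bowtie2 2.2.1 with build mm9. The role and settings of each are not stated in these notes. Per the file headers, the authors deposited a mean signal per row (baseMean, a normalized count averaged over libraries), a fold change as a ratio of group means, its log2, and p-values before and after adjustment. The deposited ratio was Tomato+ over GFP+, checked on the rows, and its sign was turned, so that a positive log2 means higher in GFP+. The authors' adjusted p-value equalled a Benjamini-Hochberg adjustment over all rows within 5.28e-08. A repeated header line was dropped.

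The planned reading of the authors' comparison applied, since no values per library were at hand; depth per library is unknown and no test of the libraries was run here. Members were found by symbol, with the highest-mean row where a symbol had several. A call is the authors' adjusted p under 0.05 over the whole table. Every member could be named. Of the other lists, the called genes could be named, up to 4 by smallest p, otherwise the 2 with the smallest p. Bcor, Slamf1 and Sox13 come under this rule. Slamf6, Gata3, Gata1, Rhag, Thy1, Cdh5 and the second row of Zfp131 were chosen after their values were seen. One listed gene is not reported here. Members and lists were chosen with earlier results of these data known. Python 3.11.15 and pandas 2.3.3 were used, and the counting step was tested on simulated data.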

Additional observations from a re-analysis of the deposited data

How the results depend on the processing

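The count of called members was 0 in both directions under each of the 10 alternatives that could be run: adjusted p under 0.1 or 0.01, an absolute log2 of at least 1, Bonferroni, adjustment over 1 row per symbol, a minimum mean of 10 or 50, the lowest-mean row, adding the 6 BTB zinc finger genes with other names, and leaving out Zbtb8os. With those 6 genes and an adjusted p under 0.1 together, 1 of 46 passed, Zfp131. No member had an unadjusted p under 0.05, and an adjusted p is never below its p. So most of these alternatives could only give 0, and the members' lowest adjusted p of 0.309 fixed the count at 0.1 as well. Only the lowest-mean row, which changes Zbtb44 alone, and the added genes brought in other p-values. The members' median log2 of -0.13 was -0.29 with equal totals, a shift of the scaling itself, and ranged from -0.29 to -0.12 over 8 alternatives. Equal totals turned 9 of the 13 members above 0 to below it, and centring on the median of well-measured rows turned 4. A pseudocount of 1 turned 0, which was fixed in advance, since adding the same number to both means cannot change a sign. No paired analysis was possible because only fraction means are given, without single libraries, and other size factors or leaving out libraries could not be run either. The order of the authors' p-values did not follow the log2 values: Zbtb17 had p = 0.729 at a log2 of 0.0011 and Zbtb7a p = 0.972 at -0.13. The cause was not tested.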
